A study of Mus musculus with 12 samples.

Results

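The transcripts described here are those of 34 mouse genes of the p53 pathway and the DNA damage response, chosen by name. They are p53 itself (Trp53), its negative regulators, genes that p53 is known to switch on, and the kinases that signal DNA damage. Each was matched to an array probe through the RefSeq accession of the probe, and where a gene had several probes, the brightest on average over all arrays was used. All 34 had a probe and were tested, out of 36945 genes or transcripts with a probe and 24184 tested. Chek1 was the exception to full detection: its probe was well above background on 2 of the 3 D1709N arrays and on every array of the other groups.

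The RNA came from DKO172 cells, a mouse cell line from a female animal's fallopian tumor, measured on 12 single-colour Agilent arrays. The cells received a plasmid with a hygromycin resistance marker that codes for GFP (the control), for DICER1 without a substitution (WT), for DICER1 D1709N or for DICER1 G1809R, with 3 arrays in each of the 4 groups. Every group was treated alike: 2 µg of plasmid, re-plating 24 h later, 84 h in hygromycin at 300 µg/ml and harvest 108 h after transfection. DICER1 cuts miRNA precursors to their mature length, and both substitutions lie in the second of its cutting domains, RNase IIIb. The labels do not state the p53 or Dicer1 genotype of the line, and all groups rest on this single line, so the results are those of 1 line. Whether replicates were separate cultures is not stated either, so p-values cover only the spread among these 12 samples and that spread may be technical.

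p53 is a transcription factor held at a low level by Mdm2 and Mdm4. After DNA damage the kinases Atm, Atr, Chek1 and Chek2 modify p53 and its inhibitors, p53 accumulates, and it binds response elements near genes that stop the cell cycle, repair DNA or start apoptosis. Several of its targets, among them Mdm2, Ppm1d and Ccng1, feed back and damp the response. In tumors of the female reproductive tract the pathway is often lost by mutation of p53, and mRNA levels alone do not show the state of the p53 protein.

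A level is the log2 processed intensity of a probe less that of the spot at the 75th percentile of its array, so levels can be set side by side between arrays for 1 gene but not between genes. A change is a difference of mean levels between groups. It was tested with limma over all 24184 genes and was called where the p-value, adjusted by Benjamini and Hochberg over these genes, was under 0.05. The 3 replicate numbers of each group went together across groups (deviations from the group means correlated at 0.60 to 0.85 within a number), so each comparison was also fitted with the replicate number as a block, and that value is printed wherever it changes the call.

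Across the arrays, 49.5% to 82.7% of probes were well above background, with WT replicate 1 the highest. Correlations within groups ranged from 0.975 to 0.992, and the lowest was also that of WT replicate 1. Replicate 1 of every group lay on 1 slide (4 arrays) and replicates 2 and 3 on another (8 arrays). The probe for mouse Dicer1 had a mean of 1.13 ± 0.20 (SD, n = 3) in GFP cells, 0.27 ± 0.23 in WT cells, 0.82 ± 0.18 for D1709N and 0.92 ± 0.24 for G1809R; the WT value was lower than GFP by limma (change -0.86, adjusted p = 0.035). Of the markers of Muellerian epithelium, 5 of 9 with a probe were well above background on all 12 arrays (Wt1, Krt7, Krt8, Krt18 and Ovgp1), while Pax8 and Foxj1 were so on 4 arrays each. Mesenchymal markers were well above background on all 12 arrays for 7 of 10, with Lum on none. Their summed level was 5.23 to 5.67 with WT and 6.02 to 6.39 with GFP. Such a sum adds unlogged intensities and follows the brightest probes, here Vim (mean level 5.28) and Dcn (3.57). It does not show whether the other mesenchymal markers were lower. Leukocyte markers were so for 4 of 8 (Ptprc on 5 arrays), and endothelial markers for 2 of 6, with Cdh5 and Emcn on none. The summed levels of these other lists overlapped between WT and GFP, and the part of any of them in the results was not tested.

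With WT against GFP, 10 of the 34 genes were lower and none higher once the replicate number was a block, where 17.8% of all genes tested were called in either direction, 8.6% lower and 9.18% higher. They were Fas, Mdm4, Chek2, Gtse1, Perp, Ppm1d, Atm, Plk2, Bbc3 and Ei24, with falls between 0.98 and 0.23 on the log2 scale. After quantile normalization with the block Plk2, Bbc3 and Ei24 were not called, while Eda2r was lower and Gadd45a higher. Of all 24184 genes 1831 were higher and 2350 lower there. The deposited values with the block gave the same changes in the list. With normexp background and the block Ei24 was not called and Gadd45a was higher. Without the block none of the 34 was called, against 2.95% of all genes, and 6 of the 34 had an unadjusted p under 0.05 (Chek2, Gtse1, Mdm4, Fas, Atm and Ppm1d). With the slide as a block 3 of the 34 were called, where 2112 of all 24184 genes were, a similar share. The 3 were Chek2 (adjusted p = 0.0101), Mdm4 (adjusted p = 0.0389) and Atm (adjusted p = 0.0392). The blocked count fell to 1 without the replicate 3 arrays of every group (Mdm4) and on slide 2 alone (Gtse1). It was also 1 in a fit of the GFP and WT arrays alone (Fas). Over all 24184 genes the blocked count of 4300 fell too, to 1255, 1613 and 1218 in these fits. When single arrays were left out, 5 to 9 of the 34 and 2328 to 4035 of all genes were called. The count of the 34 was 5 when GFP replicate 1 or either WT replicate 1 or 2 was left out. It was 6 when GFP replicate 2 or 3 was. Without GFP replicate 1, 4 of the 5 were lower and Gadd45a was higher (0.56, adjusted p = 0.0451). The median change of the 34 was -0.19, against 0.04 for all genes, and 25 of 34 lay below 0. The WT arrays lay entirely below the GFP arrays for 7 genes (Mdm4, Fas, Ppm1d, Gtse1, Atm, Atr and Chek2), in a comparison where 10.2% of all genes did, and for none of the 34 did they lie entirely above, as they did for 9.64% of all genes. In these cultures fewer cells with a transcript and less of it per cell cannot be told apart.

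With D1709N against GFP, 4 of the 34 were called lower with the block (Mdm4, Rprm, Eda2r and Trp53inp1), where 4.25% of all genes were called, 2.49% lower and 1.76% higher. With G1809R the count was 3 (Rprm, Eda2r and Trp53inp1), where 3.74% were called, 1.98% lower and 1.75% higher. Neither comparison kept a call among the 34 without the replicate 3 arrays, on slide 2 alone or in a fit of the groups compared alone. Few of all 24184 genes were called there: in that order 8, 82 and 65 with D1709N, and 0, 149 and 416 with G1809R. No gene of the 34 was higher with either mutant. Without the block none was called with D1709N (0.0496% of all genes) or with G1809R (0.0124% of all genes), and unadjusted p-values under 0.05 numbered 1 and 0. The medians of the 34 were -0.14 with D1709N and -0.16 with G1809R, against 0.03 and 0.05 for all genes, and 30 and 26 of the 34 lay below 0. All 3 sets of changes are taken against the same 3 GFP arrays, so their shared direction is no independent repeat.

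**Figure D1:**
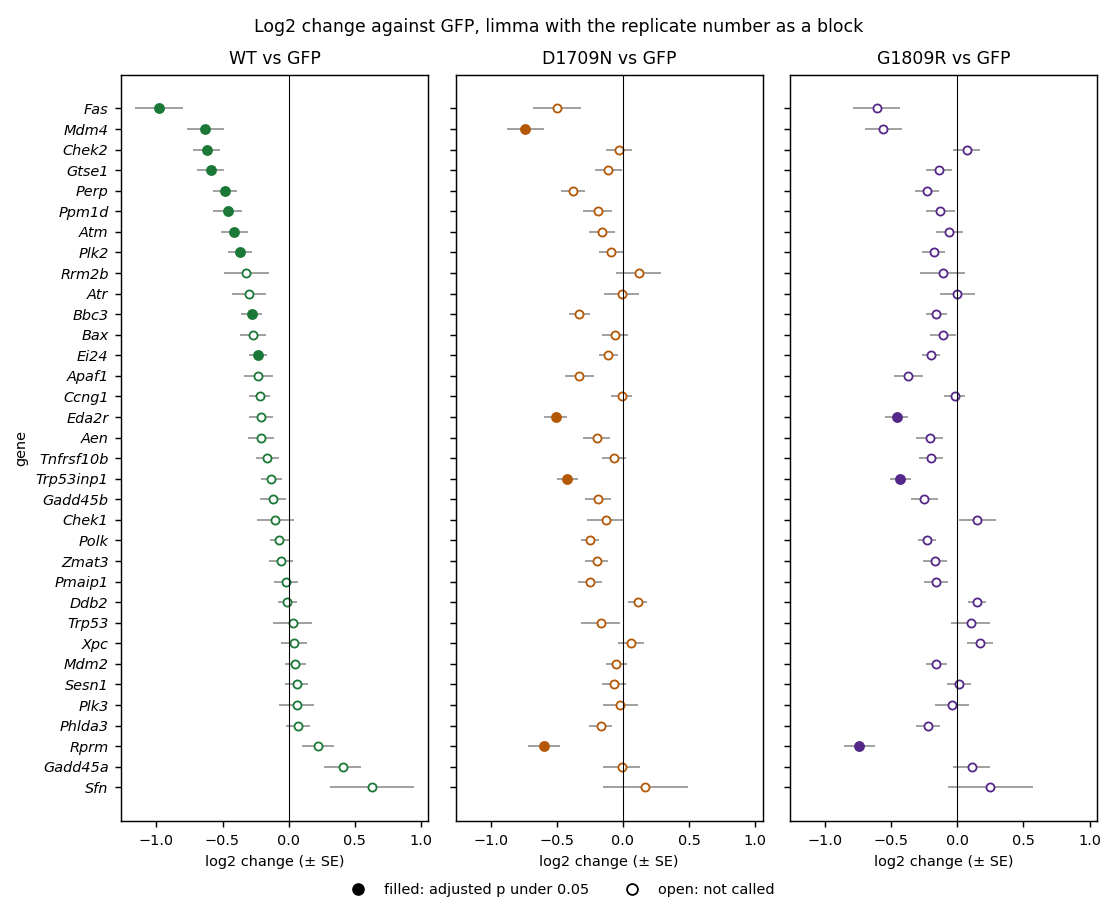
Log2 change of each of the 34 genes against GFP for WT, D1709N and G1809R, from limma with the replicate number as a block; points are changes, bars are SEs, and filled points had an adjusted p under 0.05. The 10 filled points with WT run from Fas at -0.98 to Ei24 at -0.23, and those with the mutants are Rprm, Eda2r and Trp53inp1, with Mdm4 for D1709N.

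Among the genes of p53 itself and its inhibitors, Mdm4 and Ppm1d were lower with WT while Trp53 and Mdm2 were not called. Trp53 had means of 0.13 ± 0.21 (SD, n = 3) in GFP cells, 0.16 ± 0.36 in WT cells, -0.04 ± 0.34 for D1709N and 0.23 ± 0.30 for G1809R. With WT it changed by 0.03, with a 95% interval from -0.51 to 0.57. Mdm2, the ubiquitin ligase that marks p53 for degradation, had means of 6.91 ± 0.11 in GFP cells, 6.96 ± 0.07 in WT cells, 6.86 ± 0.17 for D1709N and 6.75 ± 0.19 for G1809R. Its WT change was 0.05, with an interval from -0.24 to 0.35.

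Mdm4 binds p53 and blocks its activation domain. Its level was 0.89, 0.48 and 0.15 on the GFP arrays (replicates 1, 2 and 3, the order used throughout), 0.05, -0.19 and -0.24 with WT, 0.24, -0.19 and -0.73 with D1709N, and 0.18, -0.19 and -0.15 with G1809R. Every WT array lay below every GFP array, while the highest D1709N and G1809R arrays reached into the GFP range. The changes with the block were -0.63 ± 0.14 (SE) for WT (adjusted p = 0.0144, limma) and -0.74 ± 0.14 for D1709N (adjusted p = 0.0281); without it they had adjusted p = 0.265 and 0.532. G1809R stood at -0.56 ± 0.14 on the same probe and was not called (adjusted p = 0.0613 with the block, 0.774 without, limma). With normexp background and the block it was called (-0.57, adjusted p = 0.0268). The 2 mutants did not differ from each other by a call. The other Mdm4 probe gave -0.39, -0.54 and -0.50 for WT, D1709N and G1809R. The WT call did not hold when replicate 1 or 2 of GFP or replicate 1 of WT was left out (adjusted p from 0.0501 to 0.0641), and the D1709N call was lost without any 1 of the D1709N or GFP arrays (adjusted p from 0.056 to 0.102).

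Ppm1d is the phosphatase that removes the marks that the damage kinases place on p53. It stood at 2.46, 2.02 and 1.96 with GFP, 1.78, 1.77 and 1.51 with WT, 2.09, 2.09 and 1.70 with D1709N, and 2.26, 2.17 and 1.62 with G1809R. The WT arrays were the lower group without overlap, and the means of both mutants lay between. With WT Ppm1d changed by -0.46 ± 0.11 (adjusted p = 0.023 with the block, 0.324 without), and the call was lost when GFP replicate 1 or 3, or WT replicate 1 or 2, was left out (adjusted p from 0.0595 to 0.101). Ccng1, the cyclin G1 gene that acts through Mdm2, was lower by less: its WT change was -0.22 and was not called.

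The promoters of Mdm2 and Ppm1d are shown because both genes are feedback targets of p53. With the block Ppm1d was called lower with WT (-0.46 ± 0.11, adjusted p = 0.023, limma) and Mdm2 was not called (0.05 ± 0.08, adjusted p = 0.712). Without the block neither was called, and a difference between the 2 genes was not tested. The 250 bases before the RefSeq start (build GRCm38.p6) are given 5′ to 3′, with capitals marking a match to the p53 half-site consensus (10 bases) and the CCAAT box, read as CCAAT on either strand.

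Mdm2, chr10:117710759-117711008, minus strand: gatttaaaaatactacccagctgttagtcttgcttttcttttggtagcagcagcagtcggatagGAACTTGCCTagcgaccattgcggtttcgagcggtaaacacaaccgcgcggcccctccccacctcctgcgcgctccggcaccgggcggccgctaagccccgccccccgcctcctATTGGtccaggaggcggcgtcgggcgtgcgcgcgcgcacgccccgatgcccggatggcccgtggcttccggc

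Ppm1d, chr11:85311004-85311253, plus strand: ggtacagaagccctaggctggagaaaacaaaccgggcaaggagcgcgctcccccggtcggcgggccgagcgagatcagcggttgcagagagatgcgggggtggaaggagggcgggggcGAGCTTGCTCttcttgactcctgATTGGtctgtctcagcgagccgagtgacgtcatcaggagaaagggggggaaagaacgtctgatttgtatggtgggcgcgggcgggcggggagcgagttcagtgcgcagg

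Of the 34 genes, 26 had at least 1 promoter entry, in 33 windows of 250 bases. The half-site consensus matched in 10 of these windows, or 30.3%, against 7.13% of 32851 windows of the same length over the genome's RefSeq starts. The genes were Aen, Bax, Ccng1, Ei24, Gadd45a, Mdm2, Polk, Ppm1d, Sesn1 and Trp53. Of these 10 genes, Ppm1d and Ei24 were among those lower with WT. The CCAAT box was present in 17 of the 33 windows (51.5%, against 33.8% of all windows). A match of this kind describes the letters of the window and is not evidence of binding.

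Of the 4 damage kinases, Chek2 and Atm were lower with WT, Atr lay below GFP without being called, and Chek1 varied mostly between replicate numbers. Chek2, the kinase that Atm activates at double-strand breaks, stood at -1, -0.67 and -0.72 with GFP, -1.81, -1.24 and -1.20 with WT, -0.94, -0.72 and -0.82 with D1709N, and -0.92, -0.74 and -0.53 with G1809R. The WT arrays were below the arrays of every other group. With the block the WT change was -0.62 ± 0.10 (adjusted p = 0.00554; 0.113 without the block), a level 1.54-fold lower. The changes were -0.03 for D1709N and 0.07 for G1809R against GFP, and neither was called.

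The Chek2 promoter is shown because, of the 34 genes, Chek2 had the largest share of its spread between constructs (69.7%). Capitals mark the E2F site, searched as TTTCCCGC or TTTGGCGC on either strand, and the CCAAT box.

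Chek2, chr5:110839733-110839982, plus strand: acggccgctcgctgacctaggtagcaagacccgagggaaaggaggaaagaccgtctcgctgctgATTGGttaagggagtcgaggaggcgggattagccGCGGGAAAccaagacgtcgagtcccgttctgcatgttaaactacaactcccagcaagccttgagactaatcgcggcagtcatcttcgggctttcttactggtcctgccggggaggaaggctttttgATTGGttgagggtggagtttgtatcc

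Chek2 was the only one of the 26 genes with that E2F site, in 1 of the 33 windows (3.03%, against 1.3% of all windows). A share that rests on 1 window does not set these genes apart from the rest. The CHR element, searched as TTTGAA or TTCGAA, was in 4 of the 33 windows (12.1%, against 17.1% of all), those of Aen, Atr, Bax and Fas.

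Atm, the kinase that responds to double-strand breaks, stood at 0.99, 1.06 and 1 with GFP, 0.32, 0.77 and 0.74 with WT, 0.56, 1.03 and 0.98 with D1709N, and 0.72, 1.09 and 1.05 with G1809R. The lowest value of each DICER1 group was its replicate 1, and the GFP arrays were nearly level. The WT change was -0.41 ± 0.10 (adjusted p = 0.0221 with the block, 0.29 without), lost when GFP replicate 1, or WT replicate 1 or 2, was left out (adjusted p from 0.0539 to 0.0809). Its other probe gave -0.38 for both WT and D1709N and -0.25 for G1809R. The main probe gave -0.16 for D1709N and -0.06 for G1809R.

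Atr, the kinase of stalled replication forks, had means of 3.46 ± 0.15 with GFP and 3.16 ± 0.10 with WT, and 3.45 with both mutants. The arrays of WT did not overlap those of any other group, but the change of -0.30 was not called (adjusted p = 0.421, and 0.168 with the block). Chek1, which Atr activates, gave values from -3.04 to -2.79 on the 4 replicate 1 arrays and from -4.79 to -3.91 on the other 8. Those 4 arrays were also all the arrays of 1 slide, so replicate number and slide cannot be told apart here. The WT change of Chek1 was -0.10, with a 95% interval without the block from -1.57 to 1.38, too wide to show a change of this size. With the block its SE was 0.14, larger than the change (adjusted p = 0.683, limma).

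Of the apoptosis genes, Fas, Perp, Bbc3 and Ei24 were lower with WT, and Eda2r and Trp53inp1 with both mutants. Fas, the death receptor for Fas ligand, stood at 1.77, 2.19 and 1.34 with GFP, 0.84, 0.99 and 0.53 with WT, 1.04, 1.94 and 0.83 with D1709N, and 1.08, 1.97 and 0.42 with G1809R. All WT arrays were below all GFP arrays, while replicate 2 of each mutant was within the GFP range. Fas changed with WT by -0.98 ± 0.18, or 1.97-fold lower (adjusted p = 0.00827 with the block, 0.278 without). Fas also kept its call in a blocked fit of the GFP and WT arrays alone (adjusted p = 0.0412), where the other 9 genes lost theirs.

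Perp, a membrane protein of the p53 death response, stood at 5.63, 5.53 and 5.03 with GFP, 5.24, 5.16 and 4.36 with WT, 5.26, 5.12 and 4.67 with D1709N, and 5.32, 5.41 and 4.78 with G1809R. Replicate 3 was the lowest array of every group, so the groups overlapped, but each WT array was below the GFP array of its number. For Perp the WT change was -0.48 ± 0.09 (adjusted p = 0.00884 with the block, 0.518 without).

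Bbc3 codes for PUMA, a BH3-only activator of apoptosis. It stood at 2.65, 2.42 and 1.09 with GFP, 2.44, 2.07 and 0.79 with WT, 2.40, 2.11 and 0.65 with D1709N, and 2.63, 2.26 and 0.79 with G1809R. The gap between replicate 3 and the others was several times that between constructs. The WT change was -0.28 ± 0.08 (adjusted p = 0.0364 with the block, 0.975 without).

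Ei24, an endoplasmic reticulum protein induced by p53, stood at 1.85, 2.38 and 1.54 with GFP, 1.69, 2.10 and 1.28 with WT, 1.77, 2.24 and 1.45 with D1709N, and 1.67, 2.14 and 1.36 with G1809R. The order of the replicate numbers was the same in every group. Its WT change was -0.23 ± 0.07 (adjusted p = 0.0423 with the block, 0.895 without). In 12 fits that each left out 1 array, Ei24 was called in none (adjusted p from 0.0577 to 0.138) and Bbc3 in 2, those without G1809R replicate 1 or 3 (adjusted p in the others from 0.0522 to 0.158). Fas, Perp, Gtse1 and Chek2 were called in all 12.

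The promoters of Ei24 and Bax, 2 of the apoptosis genes with a half-site match, are given because both are targets of p53. With the block Ei24 was called lower with WT and Bax was not, but their changes were close (-0.23 ± 0.07 and -0.27 ± 0.10). Capitals mark the half-site, which in Ei24 ends at the last base before the start and in Bax overlaps a CHR match, also in capitals.

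Bax, chr7:45466899-45467148, minus strand: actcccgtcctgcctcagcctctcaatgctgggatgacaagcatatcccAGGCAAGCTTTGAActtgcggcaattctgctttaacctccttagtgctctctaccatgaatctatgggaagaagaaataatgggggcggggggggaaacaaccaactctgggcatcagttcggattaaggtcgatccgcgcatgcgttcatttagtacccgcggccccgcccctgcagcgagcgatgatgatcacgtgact

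Ei24, chr9:36797335-36797584, minus strand: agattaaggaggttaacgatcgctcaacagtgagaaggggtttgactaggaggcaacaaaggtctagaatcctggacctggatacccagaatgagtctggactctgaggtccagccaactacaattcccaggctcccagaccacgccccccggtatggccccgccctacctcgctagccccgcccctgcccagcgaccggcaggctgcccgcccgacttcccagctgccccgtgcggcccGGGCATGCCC

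Bax, which permeabilizes the outer mitochondrial membrane, had means of 3.88 ± 0.53 in GFP cells, 3.61 ± 0.41 in WT cells, 3.82 ± 0.66 for D1709N and 3.77 ± 0.53 for G1809R, and was not called in any comparison. The WT change was -0.27, below 0 in 3 of 3 same-numbered pairs.

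Trp53inp1, a stress protein that aids p53 and takes part in autophagy, stood at 4.39, 4.33 and 3.21 with GFP, 4.13, 4.22 and 3.17 with WT, 3.92, 4.02 and 2.73 with D1709N, and 3.80, 4.04 and 2.79 with G1809R. Within each replicate number both mutants were lower than GFP and WT. The changes against GFP were -0.42 ± 0.08 for D1709N (adjusted p = 0.0349 with the block, 0.991 without) and -0.43 ± 0.08 for G1809R (adjusted p = 0.0345, and 1 without). Its second probe gave -0.39 and -0.43, and for WT 0.11 where the main probe gave -0.13.

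Eda2r, a receptor of the TNF receptor family, stood at -1.34, -1.07 and -1.71 with GFP, -1.53, -1.32 and -1.91 with WT, -1.67, -1.73 and -2.24 with D1709N, and -1.65, -1.67 and -2.18 with G1809R. Again each mutant array was below the GFP array of its number. The changes against GFP were -0.51 ± 0.09 for D1709N (adjusted p = 0.0203 with the block, 0.721 without) and -0.46 ± 0.09 for G1809R (adjusted p = 0.0294, and 0.86 without). The other Eda2r probe gave -0.38 and -0.42.

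Each of these mutant calls depended on single arrays. Trp53inp1 was called in 5 of 12 leave-one-out fits for D1709N and 3 of 12 for G1809R, and Eda2r in 8 and 5. They were lost without D1709N replicate 2 or 3 or GFP replicate 2 or 3 for D1709N, and without any G1809R or GFP array for G1809R; the adjusted p then reached 0.15 for Trp53inp1 and 0.115 for Eda2r at most. Trp53inp1 was also lost without D1709N replicate 1, GFP replicate 1 or G1809R replicate 3 in the D1709N comparison, and without any D1709N array in that of G1809R; Eda2r was also lost without D1709N replicate 3 in the latter.

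The remaining apoptosis genes were not called in any of the comparisons against GFP. With WT they changed by -0.23 (Apaf1, the core of the apoptosome), -0.21 (Aen, an apoptosis-enhancing nuclease), -0.16 (Tnfrsf10b, a TRAIL receptor), -0.06 (Zmat3, an RNA-binding p53 target), -0.02 (Pmaip1, the BH3-only protein NOXA) and 0.07 (Phlda3, an inhibitor of Akt). These values lay within 1 SD of the GFP arrays for all of these genes but Tnfrsf10b.

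**Figure D2:**
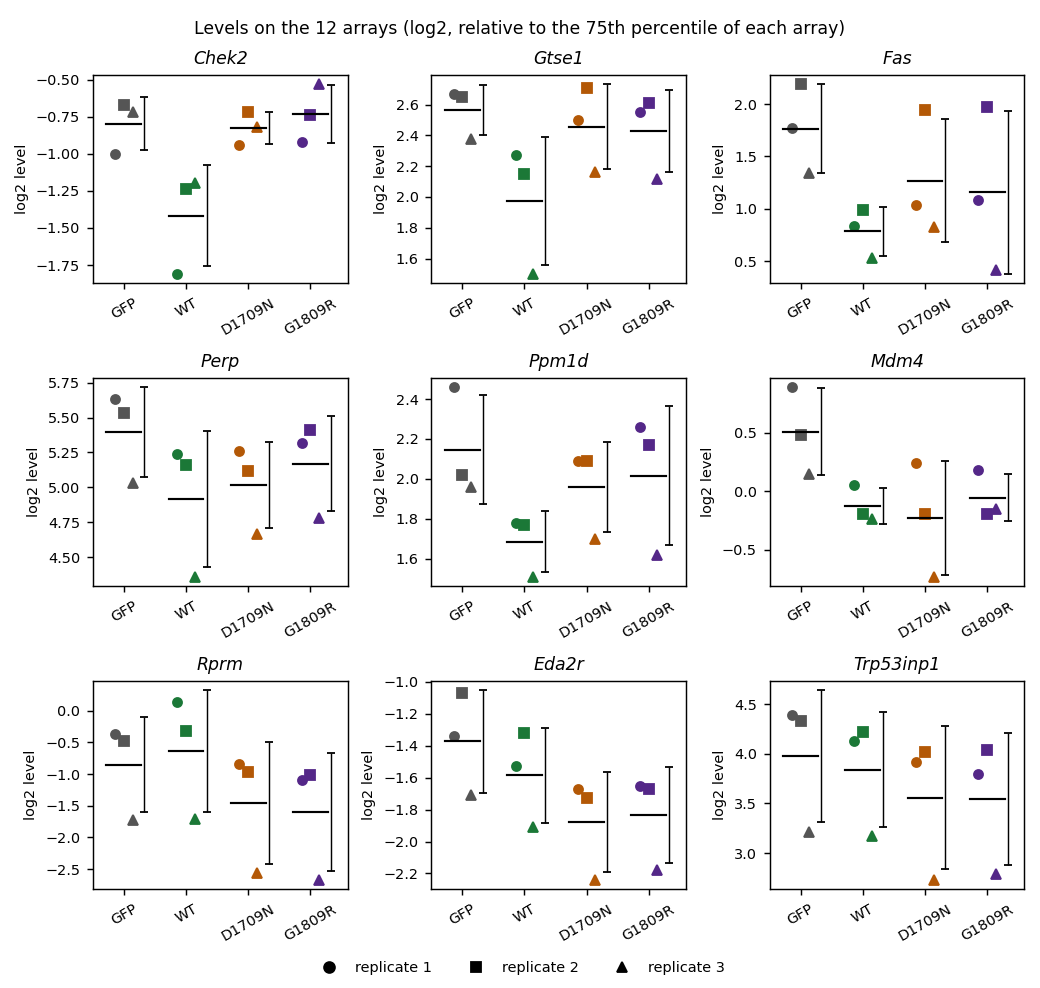
Level of 9 genes on each of the 12 arrays (log2, less the array's 75th percentile), by construct; symbols give the replicate number, horizontal lines the group means and the bars beside them the SD of 3 arrays. Chek2 is lower on all 3 WT arrays than on any other array, while Rprm and Trp53inp1 are lowest on the replicate 3 arrays of every construct.

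Among the genes of cell-cycle arrest, Gtse1 and Plk2 were lower with WT, and Rprm with both mutants. Gtse1 is a microtubule-binding protein of G2 and mitosis that carries p53 out of the nucleus. It stood at 2.67, 2.65 and 2.38 with GFP, 2.27, 2.15 and 1.5 with WT, 2.50, 2.71 and 2.16 with D1709N, and 2.55, 2.61 and 2.12 with G1809R. The WT arrays were all below the GFP arrays, and in each replicate number WT was the lowest of the 4 constructs. The change was -0.59 ± 0.10, or 1.51-fold lower (adjusted p = 0.00652 with the block, 0.242 without).

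The Gtse1 promoter is shown as that of the cell-cycle gene lower with WT in all leave-one-out fits. RefSeq gives it 2 starts, whose windows overlap; capitals mark the CCAAT box, and neither window held the half-site, E2F or CHR motif as searched.

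Gtse1 first start, chr15:85859457-85859706, plus strand: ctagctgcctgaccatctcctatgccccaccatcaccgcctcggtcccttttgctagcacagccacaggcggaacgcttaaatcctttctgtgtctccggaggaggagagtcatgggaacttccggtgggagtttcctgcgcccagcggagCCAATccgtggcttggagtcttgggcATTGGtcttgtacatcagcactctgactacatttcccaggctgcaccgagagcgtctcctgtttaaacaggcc

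Gtse1 second start, chr15:85859696-85859945, plus strand: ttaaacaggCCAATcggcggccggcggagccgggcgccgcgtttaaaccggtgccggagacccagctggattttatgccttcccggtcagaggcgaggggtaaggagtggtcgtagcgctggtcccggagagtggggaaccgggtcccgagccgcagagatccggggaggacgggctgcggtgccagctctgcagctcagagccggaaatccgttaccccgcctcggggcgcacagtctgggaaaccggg

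Plk2, a polo-like kinase of the stress response, stood at 3.39, 3.27 and 3.88 with GFP, 3.19, 2.89 and 3.35 with WT, 3.21, 3.32 and 3.74 with D1709N, and 3.19, 3.14 and 3.66 with G1809R. Here replicate 3 was the highest array of each group. The WT change was -0.37 ± 0.09 (adjusted p = 0.0273 with the block, 0.519 without), lost without any 1 GFP array or without WT replicate 2 or 3 (adjusted p from 0.0571 to 0.118).

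Rprm, a cytoplasmic protein tied to G2 arrest, stood at -0.37, -0.48 and -1.72 with GFP, 0.13, -0.32 and -1.71 with WT, -0.84, -0.97 and -2.56 with D1709N, and -1.10, -1.02 and -2.67 with G1809R. Each mutant array was below the GFP and the WT array of its number, although replicate 3 of GFP and WT lay below replicates 1 and 2 of the mutants. Against GFP the changes were -0.60 ± 0.12 for D1709N (adjusted p = 0.0323 with the block, 0.987 without) and -0.74 ± 0.12 for G1809R (adjusted p = 0.0193, and 1 without). Leaving out 1 array kept the call in 5 of 12 fits for D1709N (lost without any D1709N or GFP array or G1809R replicate 3, adjusted p up to 0.134) and in 7 of 12 for G1809R (lost without any G1809R array or GFP replicate 2 or 3, adjusted p up to 0.0828). For WT the change was 0.22 and was not called.

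The other arrest genes were not called. Sfn, the 14-3-3 sigma gene that holds mitotic Cdk1 in the cytoplasm, had the largest positive change with WT, 0.63, with a 95% interval from -0.25 to 1.52; its 3 same-numbered pairs were 0.49, 1.55 and -0.13. Gadd45a, a growth arrest gene that p53 induces, changed by 0.41 with WT (adjusted p = 0.086 with the block) and was above GFP in 3 of 3 pairs; it was called with the block after quantile normalization (change 0.48, adjusted p = 0.0384), with normexp background (0.41, adjusted p = 0.0491) and in the deposited values (0.48, adjusted p = 0.0341). Its relative Gadd45b changed by -0.12, the kinase gene Plk3 by 0.06 and Sesn1, a stress-induced inhibitor of mTORC1, by 0.06.

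The 4 genes of repair and nucleotide supply were not called in any comparison. Ddb2, the damage sensor of nucleotide excision repair, had means of 0.75 ± 0.08 in GFP cells, 0.74 ± 0.08 in WT cells, 0.87 ± 0.09 for D1709N and 0.90 ± 0.06 for G1809R. Its G1809R arrays were all above the GFP arrays, as were those of 6.14% of all genes, by 0.15, and were above the WT arrays too. Xpc, which recognizes lesions for the same pathway, changed by 0.04 with WT, and Polk, a polymerase that copies past lesions, by -0.07. Rrm2b, the ribonucleotide reductase subunit induced by p53, changed by -0.32 on its main probe and by 0.46 on its other probe, so its direction is not settled.

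The mutants were then set against WT, which asks whether the substitutions changed what the DICER1 plasmid did. All comparisons with WT rest on the same 3 WT arrays as WT against GFP. A gene lower with WT against GFP and higher with the mutants against WT is therefore no independent repeat. Nor do the comparisons of the 2 mutants with WT repeat each other independently. With the block, the mean of both mutants differed from WT for 6 of the 34 genes, where 19.5% of all genes were called, 9.53% higher and 9.96% lower: Chek2, Gtse1 and Atm were higher and Rprm, Trp53inp1 and Eda2r lower. Without the replicate 3 arrays Chek2 and Rprm were the 2 still called, on slide 2 alone they and Gtse1 were, and without D1709N replicate 3 the count was 3. Over all 24184 genes these fits called 2016, 1859 and 3623, against 4713 in the full blocked fit. Without the block none was called, against 3.61% of all genes, and 2 had an unadjusted p under 0.05 (Chek2 and Gtse1). Chek2 was higher by 0.64 ± 0.09 (adjusted p = 0.00241 with the block, 0.0585 without), and every mutant array was above every WT array, as for 6.43% of all genes. It was also called with the slide as a block (adjusted p = 0.00417) and with normexp background correction without any block (adjusted p = 0.0313). Gtse1 was higher by 0.47 ± 0.09 (adjusted p = 0.00913 with the block, 0.281 without). Rprm was lower by 0.89 on the log2 scale, with an SE of 0.10 (adjusted p = 0.000977 with the block, 0.541 without), and in all 3 same-numbered sets of arrays. These 3 genes were called in all 12 blocked fits that left out 1 array.

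The other 3 calls were smaller and less stable. Atm was higher by 0.30 ± 0.08 (adjusted p = 0.041 with the block, 0.382 without) and was called in 3 of 12 leave-one-out fits (adjusted p up to 0.165). On the other Atm probe the changes against GFP were -0.38 with WT, -0.38 with D1709N and -0.25 with G1809R. That probe did not show D1709N above WT. Trp53inp1 changed by -0.29 ± 0.07 (adjusted p = 0.026, and 0.888 without) and Eda2r by -0.27 ± 0.07 (adjusted p = 0.0344, and 0.631 without), called in 6 and 4 of 12 (adjusted p up to 0.1 and 0.13). The call was lost without any WT array, D1709N replicate 3 or G1809R replicate 3 for all of these, and also without G1809R replicate 1 for Atm and Trp53inp1, without D1709N replicate 2 or G1809R replicate 2 for Atm and Eda2r, and without GFP replicate 3 for Atm and Eda2r. After quantile normalization with the block, 10 of the 34 differed, 3 higher and 7 lower, where 2263 of all 24184 genes were higher and 2093 lower. Mdm2, Pmaip1, Gadd45a, Polk and Phlda3 joined the lower genes, with changes from -0.43 to -0.21, and Eda2r left them.

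Separately, each mutant differed from WT in some of these genes. With D1709N, Chek2 (0.59 ± 0.10, adjusted p = 0.00847) and Gtse1 (0.48 ± 0.10, adjusted p = 0.0189) were higher and Rprm (-0.82 ± 0.12, adjusted p = 0.00375) and Eda2r (-0.30 ± 0.09, adjusted p = 0.0486) lower with the block, where 15.5% of all genes were called, 7.12% higher and 8.42% lower. With G1809R, Chek2 (0.69 ± 0.10, adjusted p = 0.00512) and Gtse1 (0.45 ± 0.10, adjusted p = 0.0256) were higher and Rprm (-0.96 ± 0.12, adjusted p = 0.00206) lower, where 12.7% were, 6.36% higher and 6.31% lower. Without the block no gene of the 34 was called with D1709N (1.66% of all genes) or G1809R (1.64% of all genes), and 1 had an unadjusted p under 0.05 in each, Chek2. Eda2r was called in none of 12 leave-one-out fits with D1709N (adjusted p from 0.0541 to 0.179). Gtse1 was lost without D1709N replicate 2 or 3 or WT replicate 2 in the first comparison (adjusted p from 0.0584 to 0.0863) and without any G1809R array or WT replicate 2 or 3 in the second (adjusted p from 0.071 to 0.0872).

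Between the mutants no gene of the 34 was called with or without the block, and 0% of all genes were; none of the 34 and 65 of all 24184 genes had an unadjusted p under 0.05. The changes of G1809R against D1709N ran from -0.23 (Rrm2b) to 0.28 (Chek1), with a median of 0.01. Without the block the 95% interval for Trp53 was -0.27 to 0.81 and that for Mdm4 -0.40 to 0.75. With it their changes were 0.27 ± 0.15 and 0.18 ± 0.14. These arrays therefore do not show that the mutants act alike.

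A second pattern ran across constructs rather than between them. On the replicate 3 arrays 12 of the 34 genes were lower than on all 8 other arrays, whatever the construct, where 4.36% of all genes were. They were Bbc3, Bax, Pmaip1, Apaf1, Perp, Phlda3, Ei24, Trp53inp1, Ccng1, Sesn1, Polk and Rprm. Many of the 34 are apoptosis or arrest genes by choice of the list, and not all of these were lower. Plk2 was higher by 0.45 and Gadd45a by 0.18 than the mean of the other 8 arrays. Rprm was lower by 1.55, Bbc3 by 1.54, Trp53inp1 by 1.13 and Bax by 0.87 on the log2 scale than the mean of the other 8 arrays. Plk3 alone was higher on all replicate 3 arrays, as were 2.58% of all genes. The mean level of the 34 was 1.63 to 1.85 on the replicate 3 arrays and 1.99 to 2.20 on the others, without overlap, while the median over all genes ran from -0.55 to -0.45.

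**Figure D3:**
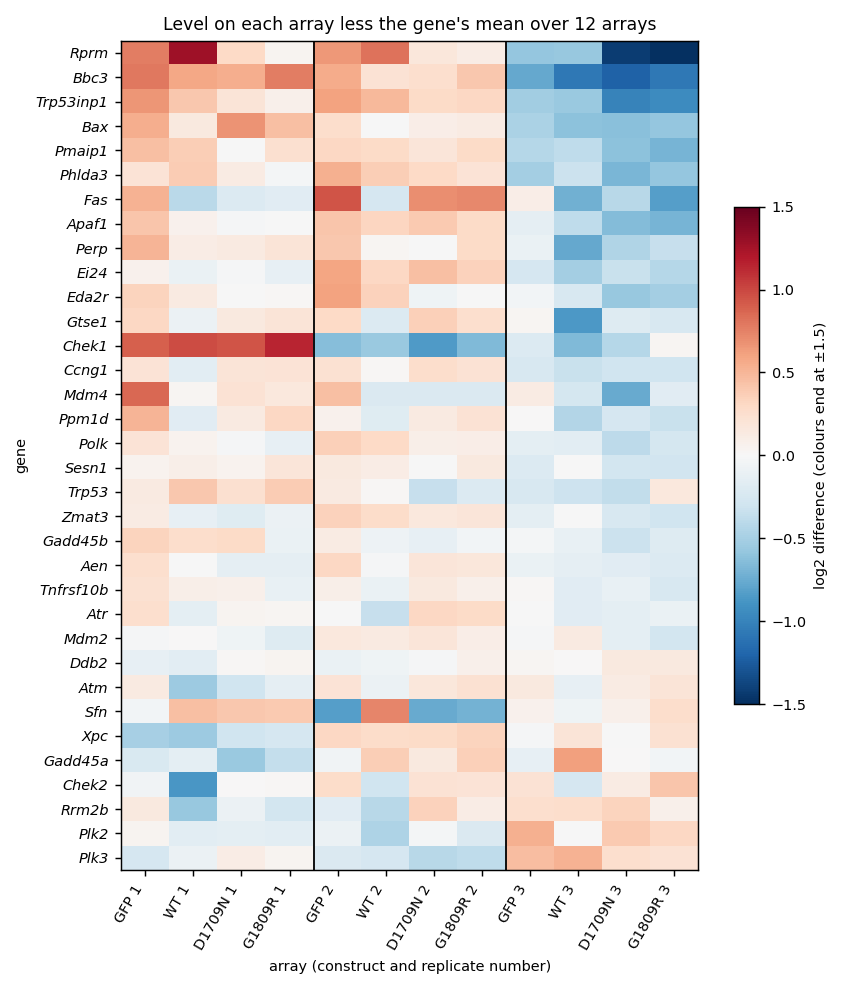
Level of each of the 34 genes on each array less the gene's mean over 12 arrays (log2 difference, red above and blue below the mean), with arrays ordered by replicate number and genes by the difference of replicate 3 from the others. The upper rows, from Rprm and Bbc3 down, are blue on all 4 replicate 3 arrays, and Chek1 is red on the 4 replicate 1 arrays.

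The spread of each gene over the 12 arrays was divided into the part between replicate numbers, the part between constructs and the rest. The replicate number held a median of 63.1% in the 34 genes and the construct 23%, against 48.9% and 24.8% over all genes. The replicate part was the larger in 28 of the 34 (82.4%, against 63.7% of all genes). It reached 96.7% for Bbc3 and 94.7% for Chek1. Chek2 was at the other end, with 69.7% between constructs and 23.3% between replicate numbers. Ddb2 (54.9%), Mdm4 (52.6%), Gtse1 (47%), Atm (45.5%) and Atr (43.6%) were the others with more spread between constructs.

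**Figure D4:**
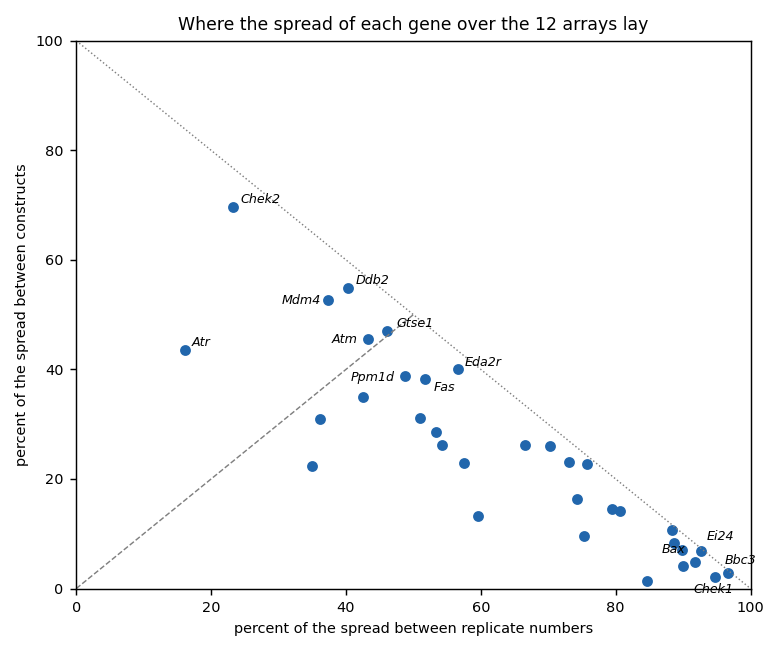
Percent of each gene's spread over the 12 arrays that lay between replicate numbers (x axis) and between constructs (y axis), 1 point per gene; the dashed line marks equal shares and the dotted line a sum of 100. Bbc3, Chek1, Ei24 and Bax lie at the lower right, and 6 of the 34 genes, Chek2 first, lie above the dashed line.

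The replicate 3 arrays had 49.5% to 61.9% of probes well above background, against 57.7% to 62.6% for replicate 2 on the same slide; the part of detection or of the culture behind the number was not tested. The list of 49 other p53 targets showed replicate 3 below all other arrays for 6 genes, or 12.2%, against 4.36% of all genes. The 6 were Sesn2, Pidd1, Ak1, Ercc5, Ddit4 and Cdc42bpg. Replicate 3 was above all other arrays for 3 of the 49, where it was for 2.58% of all genes. As a whole that list was not shifted: its median difference of replicate 3 from replicates 1 and 2 was -0.06. The median was -0.08 for all genes and -0.33 for the 34. Of the 42 genes of S phase and mitosis none was lower on replicate 3 than on all other arrays.

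The other genes of the pathway were followed through lists of related genes. With WT against GFP, 287 of all 24184 genes were higher and 426 lower without the block, and 9.18% higher and 8.6% lower with it. Of 49 other p53 targets 1 rose and 1 fell with WT against GFP: Bid, a BH3-only protein, by 0.74 (adjusted p = 0.0133), and Cdip1, a pro-apoptotic target, by -0.72 (adjusted p = 0.0295); the list's median was 0.08, and with the block 6 rose and 5 fell. Cdkn1a, which codes for the p21 inhibitor of cyclin-dependent kinases, stood at 4.10, 4.44 and 3.91 with GFP, 4.45, 4.56 and 4.37 with WT, 4.37, 4.26 and 4.04 with D1709N, and 4.16, 4.36 and 4.10 with G1809R. Its WT change was 0.31 ± 0.15 (adjusted p = 0.4, and 0.0658 with the block), above GFP in each number. Of 38 regulators of p53, 1 fell, the methyltransferase gene Setd7 (-0.92, adjusted p = 0.0116), and none rose without the block, with a median of -0.09; with the block 6 fell and 1 rose. With the mutants no gene of either list was called against GFP without the block. With it, 1 of the other targets rose and 1 fell with D1709N and 2 fell with G1809R, and of the regulators 2 fell with D1709N and 1 with G1809R. Of all genes 1.76% were higher and 2.49% lower with D1709N in that fit, and 1.75% and 1.98% with G1809R.

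Some of the genes that act with Atm and Chek2 in repair were lower with WT. Of all 24184 genes, 287 were higher and 426 lower without the block, and 9.18% higher and 8.6% lower with it. Of 61 genes of double-strand break repair and checkpoint signalling 8 fell without the block and none rose (median -0.27), and with it 28 fell and 1 rose. Polq, the polymerase of end joining by short homologies, changed by -1.46 (adjusted p = 0.00143), Fancb of the Fanconi anemia core by -0.99 (adjusted p = 0.00751) and the helicase gene Blm by -0.72 (adjusted p = 0.00775). With the mean of the mutants against WT, 14 of the 61 rose and none fell without the block, and with it 30 rose and 5 fell (Atrip, Rad52, Rad51d, Mus81 and Dclre1c). That comparison uses the same WT arrays as WT against GFP and is no independent repeat of the falls above. Of all genes in that comparison, 528 were higher and 344 lower without the block, and 9.53% higher and 9.96% lower with it. Of 48 excision and mismatch repair genes none was called with WT without the block, and with it 3 rose and 8 fell. Of 35 other apoptosis genes Bid rose and Birc5, the survivin gene of mitosis, and Casp9 fell (-0.72 and -0.49) without the block, and with it 2 rose and 8 fell.

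Genes of S phase and mitosis moved with Chek2 and Gtse1. With WT against GFP, 287 of all 24184 genes were higher and 426 lower without the block, and 9.18% higher and 8.6% lower with it. Of 42 such genes 15 fell with WT and none rose (median -0.61; 35 with the block), led by Ccna2 (-1.15, adjusted p = 0.00193), Cdc25a (-1.20, adjusted p = 0.00422) and Bub1 (-0.97, adjusted p = 0.00577). Their mean level was 1.96 to 1.99 on the WT arrays and 2.52 to 2.75 on all other arrays. Interferon-stimulated genes moved the other way: 5 of 28 rose with WT (27 with the block; median 3.07), with Cxcl10, Oasl1 and Gbp2 higher by 3.15, 4.16 and 3.27. Against GFP the median of that list was 1.51 with D1709N and 2.07 with G1809R, where no gene of it was called without the block and 9 and 22 of 28 rose with it. Of all genes 1.76% and 1.75% were higher in those blocked fits. The part of either list's change in the levels of the 34 genes was not tested.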

How the data were processed

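The 12 scanner files hold a processed intensity per spot that the authors obtained from Agilent Feature Extraction (version 11.0.1.1 in the submitters' processing notes). Per the file headers it is background-subtracted and not scaled between arrays. A deposited value table of log2 signals served as an alternative; the sources used here do not give its scaling. The 75th percentile of the 59305 non-control spots was subtracted from the log2 intensities of each array. Spots flagged as outliers were left out. A probe was kept if all 3 arrays of some group had it well above background, and the brightest probe on average stood for its gene. The number of arrays, 3 per group, limits the precision. All 12 arrays entered 1 limma fit (limma 3.58.1, R 4.3.3, package data.table, version 1.17.8) with the construct as the only factor. Tests are two-sided, and the Benjamini and Hochberg adjustment ran over all 24184 genes within a comparison. The scripts were tested on simulated data.

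Replicate numbers come from the labels. Deviations from group means correlated at 0.60 to 0.85 between arrays of the same number and -0.67 to 0.20 between others, so the numbers pair the arrays, and blocked values are printed where they change a call. Every member is named; those called, or not overlapping by at least 0.5, are given array by array, and from each other list the called genes with the smallest p, up to 3, with Cdkn1a. The members and lists were chosen with earlier results of these data known. Gene symbols come from RefSeq accessions of the probes, and promoters from RefSeq (GRCm38.p6). Alternatives were the replicate or slide as a block, slide 2 alone, normexp background (offset 50), quantile normalization, the deposited table, no filter on dim probes, only the groups compared, the mean of a gene's probes, and each array left out.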

Additional observations from a re-analysis of the deposited data

How the results depend on the processing

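Without a block, no gene of the 34 was called in the 7 comparisons. The replicate block gave 10 (WT against GFP), 4 (D1709N against GFP), 3 (G1809R against GFP), 4 (D1709N against WT), 3 (G1809R against WT) and 6 (mean of the mutants against WT); it changed no call between the mutants. The slide as a block gave 3 for WT against GFP and 1 for each comparison of the mutants with WT. Over all 24184 genes it called 2112 for WT against GFP, 1407 for D1709N and 1206 for G1809R against WT, and 2211 for their mean. Normexp background gave 1 for the mean of the mutants against WT, where 829 of all genes were called. Other alternatives without the replicate block gave 0. Without the block the WT change of Bbc3 ran from -0.77 to 0.21 over fits that left out 1 array, and was above 0 without GFP replicate 1 (0.02) or WT replicate 3 (0.21).

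Alternatives combined with the replicate block were chosen after seeing the data. In the order of comparisons above, no filter on dim probes gave 5, 0, 0, 2, 2 and 3. Of all 36945 genes it called 2531, 144, 12, 1700, 1581 and 2755. Slide 2 alone gave 1, 0, 0, 1, 1 and 3, and 1613, 82, 149, 939, 682 and 1859 of all 24184 genes. Leaving out replicate 3 of every group gave 1, 0, 0, 1, 1 and 2, and 1255, 8, 0, 1068, 810 and 2016 of all genes. A blocked fit of only the groups compared gave 1 for WT against GFP, 4 for the mean of the mutants against WT, and 0 otherwise. Of all genes it called 1218, 65, 416, 100, 171 and 3476, in the same order of comparisons. Quantile normalization gave 7, 5 and 10 for the comparisons with WT, and the values as deposited gave the same counts and, for D1709N against GFP, 7. Of all genes quantile normalization called 3155, 3025 and 4356 in the comparisons with WT. The deposited values called 3272, 3187 and 4515 of 23116 genes there, and 1123 for D1709N against GFP. Leaving out 1 array gave 5 to 9, 0 to 5, 0 to 3, 2 to 4, 2 to 4 and 3 to 7. Of all genes these fits called 2328 to 4035, 127 to 1262 and 18 to 1082 against GFP. Against WT they called 1576 to 3376, 1573 to 2773 and 2924 to 4292. Why the counts moved was not tested, apart from fewer samples or more genes tested where the alternative has them.

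Signal over background limits Chek1 most, whose probe was not well above background on 1 D1709N array. With 3 arrays a group, unblocked intervals for genes led by the replicate number, such as Bbc3 and Rprm, reach over 1 log2 unit on each side.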
